A study of Mus musculus with 15 samples.

Results

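The 9 genes described here carry the hedgehog signal from the cell surface to the nucleus: the co-receptors Boc, Cdon and Gas1, the receptor Ptch1, the transducer Smo, the transcription factors Gli1, Gli2 and Gli3, and the secreted-signal antagonist Hhip. They are 9 of the 23132 genes kept from RNA sequencing of the foetal mouse cerebral cortex with and without PHF6, a nuclear zinc finger protein encoded on the X chromosome. Boc was selected on its lower level in Phf6-deleted cortical neurons in these same data, so its values in that contrast are a description and not a finding. The other 8 genes were added because they act in the same pathway. All 9 passed the filter on low counts in every comparison.

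All samples were from C57BL/6 mice. E15.5 cerebral cortex was taken directly from 3 Phf6+/Y and 5 Phf6-/Y male foetuses of litters 1 to 3, where Phf6-/Y is a germline deletion of exons 4 and 5 in every cell of the foetus. E16.5 cortical neurons were dissociated and kept in culture for a day. They came from male foetuses of litters 4 to 7, of which 3 were Phf6+/Y;Nes-cre Tg/+ and the other 4 carried Phf6 lox/Y;Nes-cre Tg/+. The Nes-cre transgene, present in all 7, drives Cre in the neural lineage from its progenitors onward. Litter 7 gave a single Phf6 lox/Y culture and no control, so it adds nothing to a difference taken within litters. The Phf6+/Y samples of each tissue are called controls below, and the Phf6 lox/Y cultures are called Phf6-deleted neurons.

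Hedgehog ligands such as SHH bind PTCH1 with the help of BOC, CDON or GAS1. Binding relieves SMO from repression, and SMO acts through the primary cilium to turn the GLI proteins from repressors into activators of transcription. GLI1 is an activator whose gene is itself a target of the pathway, as are Ptch1 and Hhip, whereas GLI3 acts mainly as a repressor in the dorsal telencephalon, from which the cortex forms. In the postnatal cortex BOC is known from callosal projection neurons, which receive SHH from corticofugal neurons and use BOC to form synapses.

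Total counts per library ranged from 16858007 to 31157700. Phf6, the deleted gene, was at 172 ± 21.2 CPM (read counts brought to a common library size, scaled by TMM, SD, n = 3) in control and 48.0 ± 5.83 CPM (SD, n = 5) in Phf6-/Y cortex, and at 247 ± 16.8 CPM (SD, n = 3) in control and 70.6 ± 11.2 CPM (SD, n = 4) in Phf6-deleted neurons, with no overlap in either tissue. The counts cover the whole gene, so the deleted exons were not seen on their own. The neuronal markers summed to 6066 to 6653 CPM in control cortex and 9576 to 10555 CPM in control neurons, and the radial glia and progenitor markers to 2960 to 3112 CPM and 772 to 1130 CPM. The cultures therefore still held progenitor transcripts. Endothelial markers summed to 142 to 172 CPM in control cortex and 3.37 to 3.64 CPM in control neurons. These are bulk samples, in which fewer cells of a type and less RNA per cell cannot be told apart.

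The 3 Gli genes share a zinc finger region, so reads from their most alike stretches could in principle be placed on the wrong gene. The most similar 80-base windows of Gli1 and Gli2, the read length given in the labels, are shown for that reason, with the bases that differ in capitals. They were taken from GENCODE M21 coding sequences on GRCm38, the build of the counts (mm10).
Gli1, exons 9 and 10, minus strand, chr10:127334357-127336035: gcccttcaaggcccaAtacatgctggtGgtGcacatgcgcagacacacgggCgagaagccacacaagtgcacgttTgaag
Gli2, exons 10 and 11, minus strand, chr1:118844509-118845989: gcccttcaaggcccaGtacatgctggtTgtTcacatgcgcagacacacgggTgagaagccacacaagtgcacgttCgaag
The Gli1 and Gli2 windows were identical at 75 of 80 bases, with a longest run of 23, and their coordinates span an intron. The best windows of Gli1 with Gli3 and of Gli2 with Gli3 matched at 70 and 69 of 80 bases. No 80-base read from these coding sequences would therefore match 2 of the Gli genes without a difference. Gli1 overlaps Arhgap9 on chromosome 10, and the setting of the counting for strand is not given in the sources used here, so reads in that overlap cannot be assigned to one gene with certainty.

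The first comparison asked which of the 9 genes are present, and at what level, in intact cortex and in cultured neurons. In control cortex Gas1, Cdon and Smo were the most abundant of the 9 per length, Boc and Gli3 were intermediate, and Gli1 and Hhip were lowest. In control neurons the level of 8 of the 9 was lower, with fitted differences of -33.9% (Cdon) to -96.1% (Gli1), and Hhip alone did not pass the test. This compares E15.5 tissue with E16.5 cultures that carry Nes-cre, so age, culture, cell mixture and transgene cannot be told apart, and no litter spans both.

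Levels are given here in RPKM, which is CPM divided by the length of the gene in kilobases, so that genes can be compared. In control cortex Gas1 was at 27.5 ± 2.57, Cdon at 27.2 ± 1.88 and Smo at 24.7 ± 3.06 RPKM (SD, n = 3), and the libraries of each overlapped those of the next in this order. Boc at 14.5 ± 1.58 and Gli3 at 13.2 ± 2.38 RPKM followed, below Smo without overlap and overlapping each other. Gli2 at 8.32 ± 1.68 and Ptch1 at 8.02 ± 0.875 RPKM also overlapped. Gli1 at 2.65 ± 0.182 RPKM and Hhip at 0.323 ± 0.0916 RPKM each lay below the gene before them in every library.

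In control neurons Cdon was highest at 18.01 ± 3.47 RPKM, above every other gene. Smo at 11.4 ± 1.24 and Gas1 at 8.53 ± 3.81 RPKM overlapped, as did Gas1 and Boc, which was at 7.55 ± 0.338 RPKM. Below Boc came Gli3 at 3.60 ± 1.29, Ptch1 at 3.51 ± 0.759 and Gli2 at 1.97 ± 0.220 RPKM, of which Gli3 and Ptch1 overlapped. Gli1 was last at 0.0999 ± 0.0583 RPKM, below Hhip at 0.412 ± 0.154 RPKM, so these 2 genes stood in the opposite order to that in cortex. Gli1 rested on 3 to 15 reads per control culture, against 229 to 308 reads per control cortex.

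**Figure D1:**
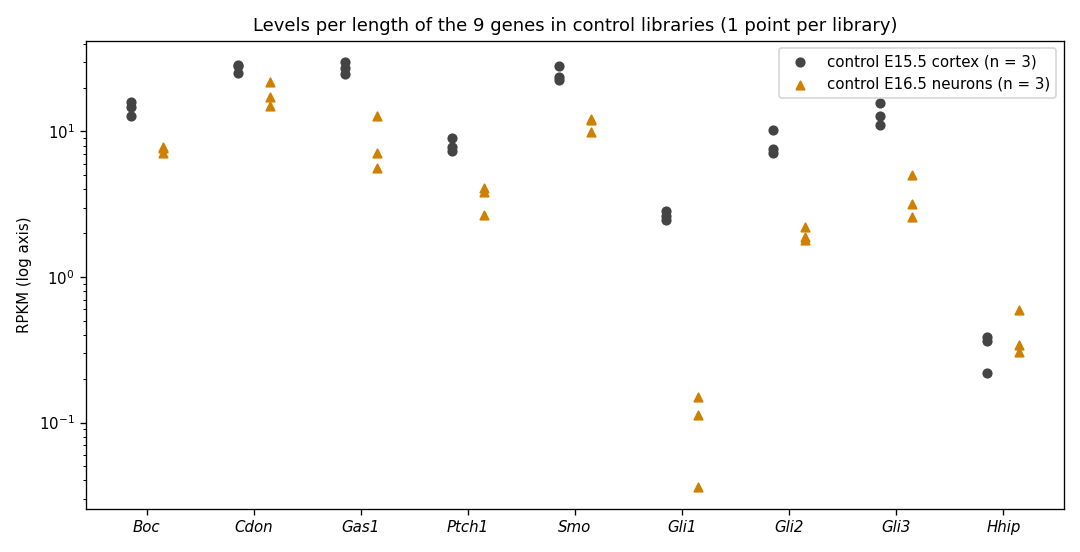
RPKM (log axis) of the 9 genes in each of the 3 control E15.5 cortices (circles) and the 3 control E16.5 neuron cultures (triangles). Every gene but Hhip lies lower in the cultures, with Gli1 falling from about 2.65 to 0.0999 RPKM on average.

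By the quasi-likelihood test of edgeR, adjusted after Benjamini and Hochberg, 8 of the 9 genes were lower in control neurons and none was higher. Of all 14320 genes tested, 26.4% were lower and 24.7% higher. The same 8 genes had every culture below every cortex, as did 31.6% of all genes, while 28.9% had every culture above. The median log2-fold change was -1.19 over the 9 genes and -0.03 over all genes. The shares of lower and higher calls depended on the scaling: with library totals in place of TMM the median of all genes was -0.17, and 33.0% of the calls were higher rather than 48.4%, but the 8 genes were lower under both.

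The Gli factors showed the largest differences of the 9. Gli1 was at 9.64, 9.07 and 10.4 CPM in control cortices and 0.550, 0.415 and 0.132 CPM in control neurons (log2-fold change -4.69, SE 0.35, FDR = 3.84e-07). Gli2 was at 68.7, 48.0 and 50.7 CPM against 14.9, 12.6 and 12.1 CPM (log2-fold change -2.08, SE 0.15, FDR = 3.79e-07), and Gli3 at 133, 93.3 and 107 CPM against 42.5, 21.7 and 26.9 CPM (log2-fold change -1.87, SE 0.27, FDR = 0.00155). The mix of the Gli transcripts differed too. Gli1 made up 11.1 ± 1.70% of the summed Gli RPKM in control cortex and 1.74 ± 0.917% in control neurons (SD, n = 3), whereas Gli3 made up 54.5 ± 0.911% and 62.6 ± 5.92%. The ranges of Gli1's share, 9.18 to 12.3% and 0.714 to 2.48%, did not overlap.

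Among the receptors, Smo (log2-fold change -1.12, SE 0.11, FDR = 3.79e-06) and Ptch1 (-1.19, SE 0.16, FDR = 4.31e-05) were lower in control neurons, with fitted differences of -54.1% and -56.2%. Of the co-receptors, Gas1 had a log2-fold change of -1.69 (SE 0.31, FDR = 0.0058), Boc of -0.94 (SE 0.10, FDR = 8.96e-06) and Cdon of -0.60 (SE 0.12, FDR = 0.00163). Cdon accordingly made up 39.4 ± 0.920% of the summed co-receptor RPKM in control cortex and 53.0 ± 3.78% in control neurons, while Gas1 made up 39.7 ± 0.616% and 24.3 ± 5.77%. Hhip was at 3.32, 1.98 and 3.51 CPM in control cortices and 2.79, 3.09 and 5.35 CPM in control neurons, which overlap (log2-fold change 0.34, SE 0.33, FDR = 0.415). Progenitor markers differed the same way as the 8 genes, with 11 of 12 lower and a median log2-fold change of -1.87, and their part in the result was not tested.

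The second comparison asked what germline loss of PHF6 did to these genes in the E15.5 cortex. None of the 9 was called by edgeR with a term for litter (quasi-likelihood test, FDR below 0.05 over all genes), nor by DESeq2 or limma-trend. Of 14750 genes tested, 0.319% were higher and 0.0678% lower in Phf6-/Y cortex. These were 47 and 10 genes, and without the term for litter 0 and 1. At an unadjusted p below 0.05 there were 3 of the 9 lower (Boc, Cdon and Gas1) and 1 higher (Ptch1), while 10.5% of all genes passed in either direction. The log2-fold change was negative for 7 of the 9, with a median of -0.15 over the 9 and -0.0021 over all genes. None of the 9 had every Phf6-/Y library on one side of every control, which 2.47% of all genes showed as higher and 2.55% as lower.

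Boc, the co-receptor by which the group was chosen, was at 56.5, 65.2 and 70.4 CPM in the control cortices of litters 1, 2 and 3. The Phf6-/Y cortices held 52.6 and 49.5 CPM in litter 1, 50.9 and 57.8 CPM in litter 2 and 60.1 CPM in litter 3. The mean of the Phf6-/Y cortices was below the control of its litter in 3 of 3 litters, by between -16.7% and -9.65%, although the groups overlapped across litters. The log2-fold change was -0.22 (SE 0.07, FDR = 0.304), and it ranged from -0.26 to -0.18 with each library left out in turn, with an FDR of 0.193 to 0.702. These libraries were not used to choose Boc.

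The other co-receptors lay in the same direction without passing the test. Gas1, which encodes a membrane-anchored ligand binding protein, was at 78.1, 86.0 and 94.2 CPM in the controls of litters 1, 2 and 3, and at 68.7, 68.4, 69.3, 82.0 and 70.9 CPM in Phf6-/Y cortices. Only 1 Phf6-/Y library, at 82.0 CPM, reached the range of the controls (log2-fold change -0.25, SE 0.08, FDR = 0.225), and the deleted mean was lower in 3 of 3 litters. Cdon was at 181, 202 and 206 CPM in the controls and between 163 and 188 CPM in Phf6-/Y cortices (log2-fold change -0.17, SE 0.07, FDR = 0.459), lower in 2 of 3 litters. The summed RPKM of the 3 co-receptors was 69.1 ± 5.95 in control (SD, n = 3) and 59.5 ± 2.87 in Phf6-/Y cortex (SD, n = 5), and Boc made up 20.9 ± 0.498% and 20.6 ± 1.43% of it.

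Ptch1, the receptor gene, and Hhip, the antagonist gene, both targets of the pathway, lay in the other direction. Ptch1 was at 33.4, 31.5 and 38.7 CPM in the controls of litters 1, 2 and 3. The Phf6-/Y cortices held 43.2 and 33.7 CPM in litter 1, 33.9 and 41.9 CPM in litter 2 and 62.2 CPM in litter 3, so that 1 library stood well above the rest and 2 lay within the control range. The deleted mean was higher in 3 of 3 litters, by 15.2% to 60.6% (log2-fold change 0.36, SE 0.12, FDR = 0.293). Without the library at 62.2 CPM the log2-fold change was 0.24 (FDR = 0.641). The same library had the highest Hhip of the cortices, at 5.46 CPM against 3.26, 3.26, 3.44 and 3.76 CPM in the other Phf6-/Y cortices and 1.98 to 3.51 CPM in controls (Hhip log2-fold change 0.45, SE 0.23, FDR = 0.529).

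That library also had the highest Shh and Nkx2-1 among the cortices, but not the highest Gli1, which was at 9.58 CPM there and up to 10.4 CPM in controls. Its Shh was at 6.97 CPM against 1.61 to 4.19 CPM in controls, and its Nkx2-1, which marks the ventral telencephalon, was at 88.9 CPM against 30.6 to 71.5 CPM. The control of the same litter was the highest control for both genes. The summed ventral telencephalon and interneuron markers of that Phf6-/Y library were at 844 CPM, within the 662 to 888 CPM of the controls. Its radial glia and progenitor markers summed to 3348 CPM, above the 2960 to 3112 CPM of the controls. Its neuronal markers summed to 5101 CPM, below the 6066 to 6653 CPM of the controls. Its callosal and corticofugal projection neuron markers, at 1047 and 1072 CPM, were the lowest sums of the cortices. The part of ventral tissue or of this cell mixture in the Ptch1 and Hhip values was not tested.

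The transducer and the Gli factors did not pass the test, and for each of them the groups overlapped. Smo was at 89.2, 93.6 and 112 CPM in the controls of litters 1, 2 and 3 and at 88.3, 78.0, 74.7, 87.6 and 103 CPM in Phf6-/Y cortices, lower in 3 of 3 litters by between -13.3% and -6.81% (log2-fold change -0.15, SE 0.08, FDR = 0.519). Gli3 was at 107, 93.3 and 133 CPM in the controls and 85.9 to 105 CPM in Phf6-/Y cortices (log2-fold change -0.15, SE 0.08, FDR = 0.558). Gli2 was at 50.7, 48.0 and 68.7 CPM in the controls and 47.4 to 52.6 CPM in Phf6-/Y cortices (log2-fold change -0.12, SE 0.10, FDR = 0.713). Its negative sign rested on litter 3, since without the control or the Phf6-/Y library of that litter the log2-fold change was 0.02 or 0.03. Gli1, the activator that reads out the pathway, was at 10.4, 9.07 and 9.64 CPM in the controls and 7.79 to 9.58 CPM in Phf6-/Y cortices (log2-fold change -0.14, SE 0.14, FDR = 0.772).

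**Figure D2:**
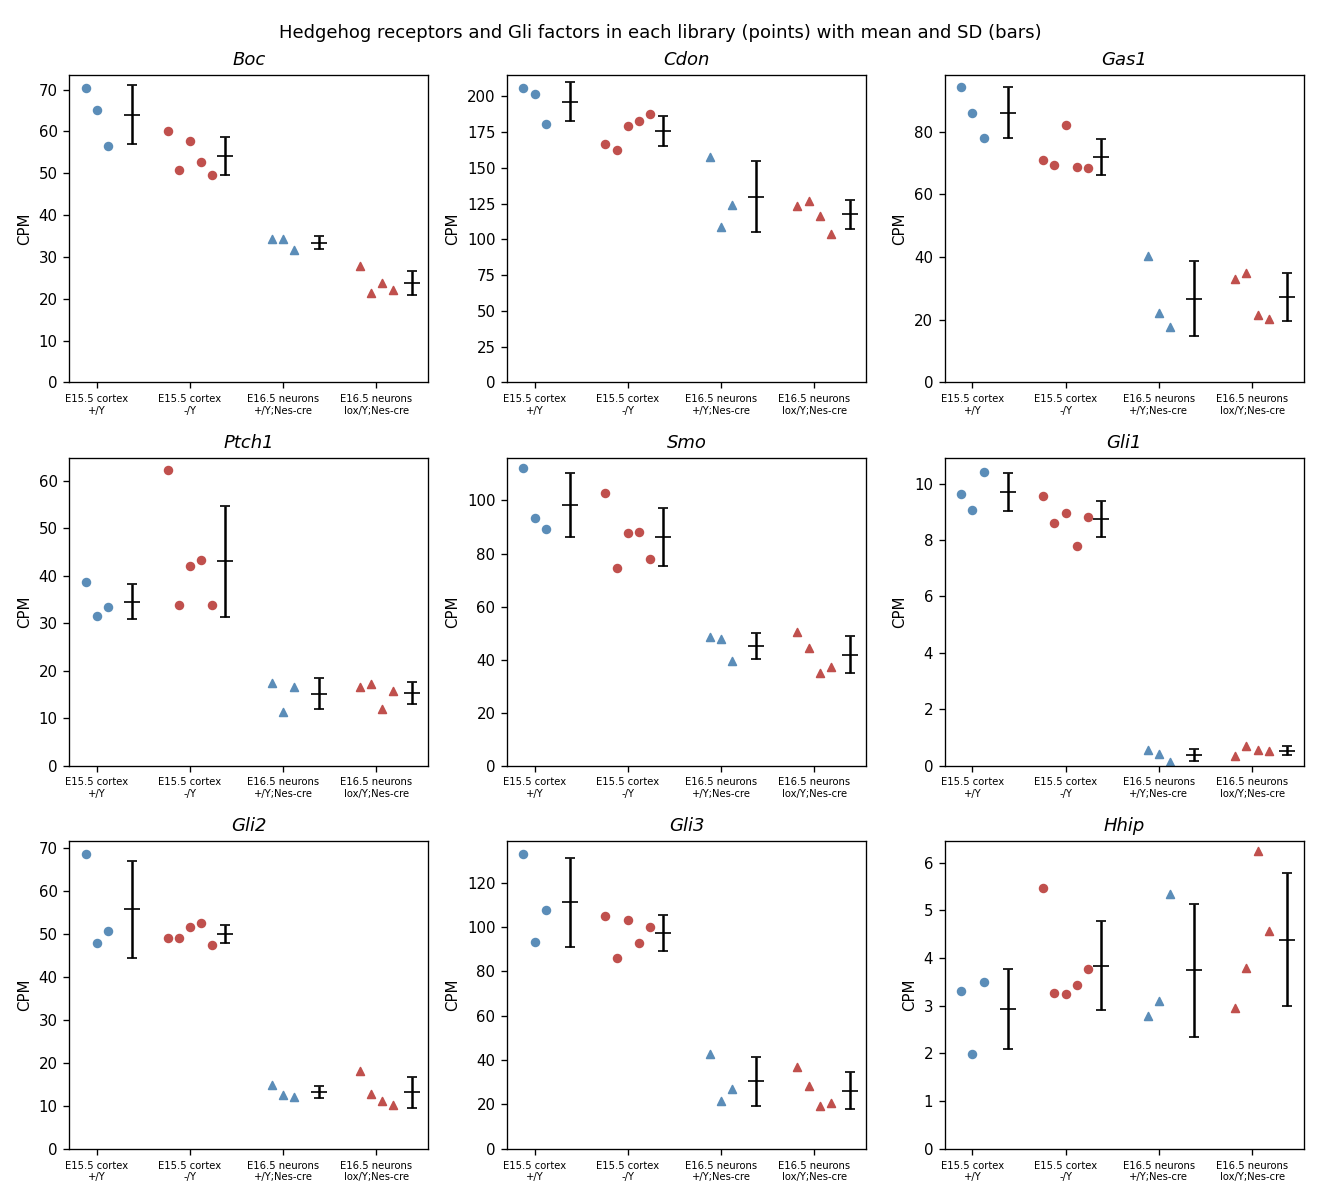
CPM of each of the 9 genes in every library (points) with the mean and SD of each group (bars), control groups in blue and Phf6-deleted groups in red, cortex as circles and neurons as triangles. Boc lies between 21.5 and 27.9 CPM in Phf6-deleted neurons and between 31.7 and 34.4 CPM in their controls, and 1 Phf6-/Y cortex stands apart for Ptch1 at 62.2 CPM.

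The third comparison asked the same in E16.5 cortical neurons, where Cre had removed Phf6 from neural cells. Boc was the only one of the 9 called by edgeR, DESeq2 or limma-trend, as the choice of the group implies, and no member was called higher. Of 13909 genes tested, 0.0791% were lower and 0.194% higher in Phf6-deleted neurons. These were 11 and 27 genes, and without the term for litter 1 and 0. Boc was also the only one with every Phf6-deleted culture below every control, as 3.62% of all genes were, and none lay wholly above, as 3.61% of all genes did. By p, Boc was at rank 25 of all genes tested (FDR = 0.0148), and Gli3 came next of the 9, at rank 190 (FDR = 0.158). The log2-fold change was negative for 7 of the 9, with a median of -0.16 over the 9 and 0.00097 over all genes. An unadjusted p below 0.05 was found for 3 of the 9, all lower (Boc, Gli3 and Smo), against 10.3% of all genes in either direction. These counts and the median of the 9 include Boc, which was chosen on this contrast, so they are descriptive.

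Boc was at 34.2, 34.4 and 31.7 CPM in the control neurons of litters 4, 5 and 6 and at 21.5, 23.7 and 22.1 CPM in the Phf6-deleted neurons of the same litters. The culture of litter 7, with no control, held 27.9 CPM. Within litters the Phf6-deleted culture was lower by between -37.2% and -30.4% and the fitted log2-fold change was -0.58 (SE 0.10). These values describe the contrast that chose Boc. Boc was not called without the control or the Phf6-deleted culture of litter 5 (FDR = 0.0936 and 0.0578), nor without the term for litter (log2-fold change -0.49, FDR = 0.369). They rest on 372 to 933 Boc reads per culture. Boc made up 22.7 ± 4.00% of the summed co-receptor RPKM in controls (SD, n = 3) and 17.8 ± 2.25% in Phf6-deleted neurons (SD, n = 4), with overlapping ranges.

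The related receptors did not pass the test, and their differences were not compared with that of Boc. Cdon was at 157, 108 and 124 CPM in the controls of litters 4, 5 and 6 and 127, 116 and 104 CPM in their Phf6-deleted littermates, with 123 CPM in litter 7 (log2-fold change -0.16, SE 0.08, FDR = 0.499). Gas1 was at 40.2, 22.3 and 17.6 CPM against 34.8, 21.4 and 20.2 CPM, with 33.0 CPM in litter 7, so that litters differed by far more than genotypes (log2-fold change -0.03, SE 0.11, FDR = 0.954). Ptch1 was at 17.5, 11.4 and 16.49 CPM against 17.2, 12.03 and 15.7 CPM, with 16.45 CPM in litter 7 (log2-fold change -0.01, SE 0.12, FDR = 0.988). The sign of neither Gas1 nor Ptch1 was stable, since it turned without the litter term or without some of the libraries.

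Smo and the larger Gli factors were lower in every litter without passing the test. Smo was at 48.6, 47.6 and 39.6 CPM in controls and 44.5, 35.0 and 37.4 CPM in Phf6-deleted neurons of litters 4, 5 and 6, with 50.3 CPM in litter 7 (log2-fold change -0.21, SE 0.09, FDR = 0.412). Gli3 was at 42.5, 21.7 and 26.9 CPM against 28.1, 19.3 and 20.6 CPM, with 37.0 CPM in litter 7 (log2-fold change -0.40, SE 0.11, FDR = 0.158). Gli3 differed between litters by more than between genotypes, so the groups overlapped, and within litters the difference was between -33.9% and -11.1%. Gli3 was called without the control culture of litter 6 (FDR = 0.0406) and without the filter on low counts (FDR = 0.0157). Calls over all genes also rose in both of these settings. Without the term for litter Gli3 was not called (log2-fold change -0.21, FDR = 0.934). Gli2 was at 14.9, 12.6 and 12.1 CPM against 12.7, 11.3 and 10.3 CPM, with 18.2 CPM in litter 7 (log2-fold change -0.21, SE 0.13, FDR = 0.628).

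Gli1 and Hhip, the least abundant of the 9, had positive log2-fold changes. Gli1 was at 0.550, 0.415 and 0.132 CPM in controls and 0.699, 0.573 and 0.529 CPM in Phf6-deleted neurons of litters 4, 5 and 6, with 0.345 CPM in litter 7. These are 3 to 19 reads per culture, and no difference was detectable at this depth (log2-fold change 0.77, SE 0.63, FDR = 0.740). Hhip was at 2.79, 3.09 and 5.35 CPM against 3.79, 6.24 and 4.57 CPM, with 2.96 CPM in litter 7 (log2-fold change 0.39, SE 0.26, FDR = 0.667). Neither Gli1 nor Hhip separated the genotypes.

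**Figure D3:**
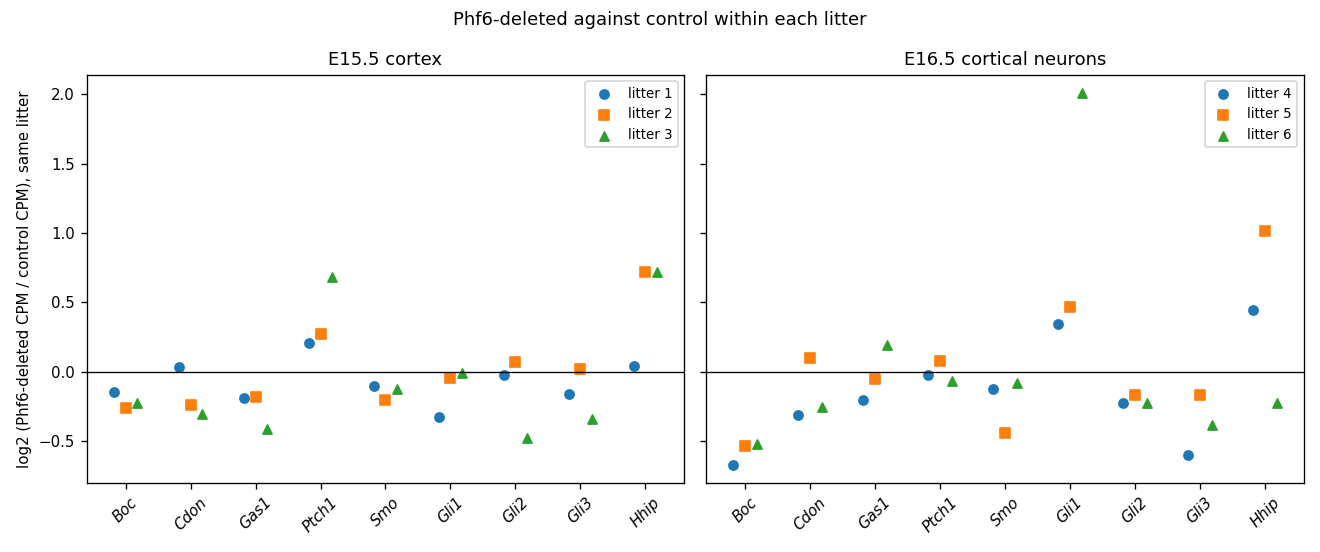
Log2 ratio of the CPM of Phf6-deleted to control samples within each litter, for the E15.5 cortex (litters 1 to 3, mean of the Phf6-/Y samples) and E16.5 neurons (litters 4 to 6, 1 sample each). Smo, not called in either tissue, lies below 0 in all 6 litters, as does Boc, which was chosen on litters 4 to 7. The share of all genes that do so was not taken. The high point for Gli1 in litter 6 rests on a control with 3 reads.

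Across both tissues, Smo had a lower mean in the Phf6-deleted samples in all 6 litters. Boc did too, but litters 4 to 6 belong to the contrast by which it was chosen. Cdon was lower in 4 of 6 litters, and Gas1, Gli2 and Gli3 in 5 of 6. The share of all genes with such counts was not taken, so these counts do not single out any of the 9. Smo was not called in either tissue. The Phf6-deleted culture of litter 7, left out of these counts, held 50.3 CPM of Smo, against 39.6 to 48.6 CPM in control neurons. Whether a genotype difference was unequal between tissues was tested as an interaction over all 15 libraries with litter as a term. None of the 9 was called by edgeR, DESeq2 or limma-trend, 3 had an unadjusted p below 0.05 (Boc, Ptch1 and Gli1) against 5.19% of all genes, and of all 15001 genes 0.00667% had a higher and 0.00667% a lower value in neurons than in cortex. The Boc log2-fold change was more negative in neurons than in cortex by a difference of -0.37 (SE 0.11, FDR = 0.703). This value, and the place of Boc among those 3, include the contrast by which Boc was chosen. For Ptch1 the difference was -0.37 (SE 0.17, FDR = 0.954), for Gli3 -0.25 (SE 0.14, FDR = 0.954) and for Gli1 0.87 (SE 0.40, FDR = 0.954). These values do not show that the tissues responded alike.

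**Figure D4:**
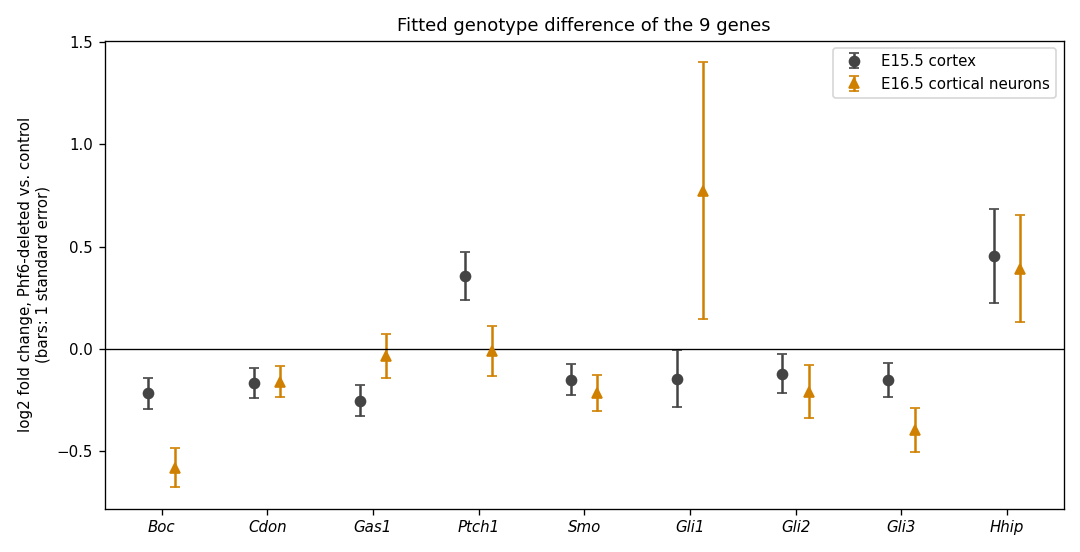
Fitted log2-fold change (Phf6-deleted vs. control) with 1 standard error for the 9 genes in E15.5 cortex (circles) and E16.5 cortical neurons (triangles). Boc is at -0.22 in cortex and -0.58 in neurons, and the error of Gli1 in neurons (0.63) is the widest.

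Callosal projection neuron markers, which are known from cells that use BOC, were examined beside it. In the cortex they summed to 1331 to 1339 CPM in controls and 1047 to 1310 CPM in Phf6-/Y samples, so every Phf6-/Y cortex lay below every control. Of all genes taken singly, 2.55% did so. The lowest sum came from the Phf6-/Y library with the highest Ptch1. In the neurons they summed to 2298 to 2506 CPM in controls and 2082 to 2427 CPM in Phf6-deleted cultures, which overlap. The log2-fold change was negative for 6 of the 7 markers in each tissue, with medians of -0.21 and -0.05, and none passed the test. An unadjusted p below 0.05 was found for 3 in the cortex and 2 in the neurons, against 10.5% and 10.3% of all genes. Radial glia and progenitor markers summed to 772 to 1130 CPM in control and 696 to 1026 CPM in Phf6-deleted neurons, with 9 of 12 negative, a median log2-fold change of -0.16, 4 at an unadjusted p below 0.05 and none called. In the cortex 9 of 12 were negative too, with a median of -0.04 and 3 at an unadjusted p below 0.05. The part of either cell type in the values of Boc was not tested.

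Of the other marker lists, only 2 held a called gene. Foxp2, a transcription factor of corticofugal neurons, rose in Phf6-/Y cortex from 43.1 ± 5.29 CPM (SD, n = 3) to 57.3 ± 6.41 CPM (SD, n = 5), with a log2-fold change of 0.44 (FDR = 0.0368). Of the 7 corticofugal markers 4 were negative in the cortex, with a median of -0.03, and their summed level was 1442 ± 55.4 CPM in control and 1452 ± 219 CPM in Phf6-/Y cortex. Ttr, a choroid plexus transcript, rose in Phf6-deleted neurons from 0.403 to 2.12 CPM in controls to 2.43 to 22.3 CPM (log2-fold change 2.84, FDR = 1.88e-04), where Kl, Folr1 and Clic6 of the same list were below 1 CPM in every culture. Aqp1 of that list was below 1 CPM in every control culture, but not in every Phf6-deleted culture. The 2 genes of the list tested in neurons both had positive log2-fold changes, with a median of 1.97. Endothelial markers in the cultures summed to 3.37 to 3.64 CPM in controls and 3.80 to 6.94 CPM in Phf6-deleted neurons, and Cldn5 was at 0 in all controls. Among the cortices, meningeal fibroblast markers summed to 18.4 to 277 CPM in controls and 16.6 to 535 CPM in Phf6-/Y samples. Choroid plexus markers summed to 2.13 to 475 CPM and 2.84 to 335 CPM. Replicate 4 had the highest Phf6-/Y sum of both lists. The part of such tissue in the cortex values was not tested.

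The genes whose levels followed that of Boc were sought over all 15 libraries after the mean of each tissue was subtracted. The points share genotype, litter and library depth, so the coefficients are descriptive. The 15 libraries include the neurons by which Boc was chosen. Genotype means were not subtracted, so genes that differ by genotype can rank as alike or opposed. Of 13732 other genes tested in both tissues, the most alike were Garem2 (Pearson's r 0.90, Spearman's rho 0.88), Ascc1 (0.89 and 0.90), Slc25a20 (0.87 and 0.81), Aldh16a1 (0.87 and 0.86) and Inava (0.87 and 0.87). The most opposed were Traf3ip2 (-0.90 and -0.85), Dis3l (-0.87 and -0.88) and Phip (-0.86 and -0.86). Among the 9, Smo was the most alike (0.66 and 0.64, rank 172), followed by Gli2 (0.48), Gli3 (0.47), Cdon (0.46) and Gas1 (0.23). The coefficient was 0.00191 for Ptch1, and Gli1 (-0.36) and Hhip (-0.39) were opposed.

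The remaining genes of the pathway were read from lists of ligands and their release, other binding proteins, signal transduction between SMO and GLI, target genes and the primary cilium. Of these 70 genes, 67 were tested in the cortex and 62 in the neurons, and none passed edgeR's test in either. At an unadjusted p below 0.05 there were 9 and 3, against 10.5% and 10.3% of all genes. DESeq2 called Disp2 and Nkx2-1 higher in the cortex, and limma-trend called none.

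Of the ligands, only Shh exceeded 1 CPM in any library. Shh was at 1.61 to 4.19 CPM in control and 2.38 to 6.97 CPM in Phf6-/Y cortex (log2-fold change 0.71, SE 0.23, FDR = 0.278), and below 1 CPM in every culture, where it did not pass the filter. Ihh and Dhh were below 1 CPM in all libraries. Disp2, a homologue of the protein that releases the ligand, was at 110 to 138 CPM in control and 136 to 171 CPM in Phf6-/Y cortex and came nearest to the threshold (log2-fold change 0.31, SE 0.06, FDR = 0.0656). In the cortex 7 of the 8 tested genes of the list had a positive log2-fold change, and the median was 0.28. Of these, 2 had an unadjusted p below 0.05, against 10.5% of all genes.

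Among other binding proteins, Lrp2, an endocytic receptor, was at 3.25 to 7.54 CPM in controls and 5.94 to 16.97 CPM in Phf6-/Y cortex (log2-fold change 0.71, SE 0.20, FDR = 0.180). Its highest value came from the Phf6-/Y library that was also highest for Ptch1. Of the target genes 7 of 8 were positive in the cortex, with a median of 0.25. Against 10.5% of all genes, 5 of these 7 had an unadjusted p below 0.05, and none was called. They included Nkx2-1 (log2-fold change 0.38, SE 0.09, FDR = 0.137) and the cell cycle gene Ccnd1 (log2-fold change 0.29, SE 0.08, FDR = 0.194), and Ccnd1 too was highest in that library, at 179 CPM against 83.5 to 123 CPM in controls. In the neurons 3 of the 6 tested targets were positive and 3 negative, with none at an unadjusted p below 0.05.

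The 24 signal transduction genes had medians of -0.03 in the cortex and 0.01 in the neurons, with 1 and none at an unadjusted p below 0.05. The smallest p values belonged to Spop, an adaptor for the degradation of GLI proteins (cortex log2-fold change -0.19, SE 0.06, FDR = 0.268), and Prkacb, a catalytic subunit of protein kinase A, which phosphorylates them (neurons 0.12, SE 0.05, FDR = 0.484). The 24 cilium genes had medians of 0.03 and -0.10. Of these, Tulp3, which carries receptors into the cilium, was at 31.2 to 31.6 CPM in control and 24.5 to 28.2 CPM in Phf6-deleted neurons (log2-fold change -0.25, SE 0.10, FDR = 0.369). Cc2d2a, a protein of the ciliary transition zone, had a log2-fold change of -0.27 in neurons (SE 0.11, FDR = 0.414).

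**Figure D5:**
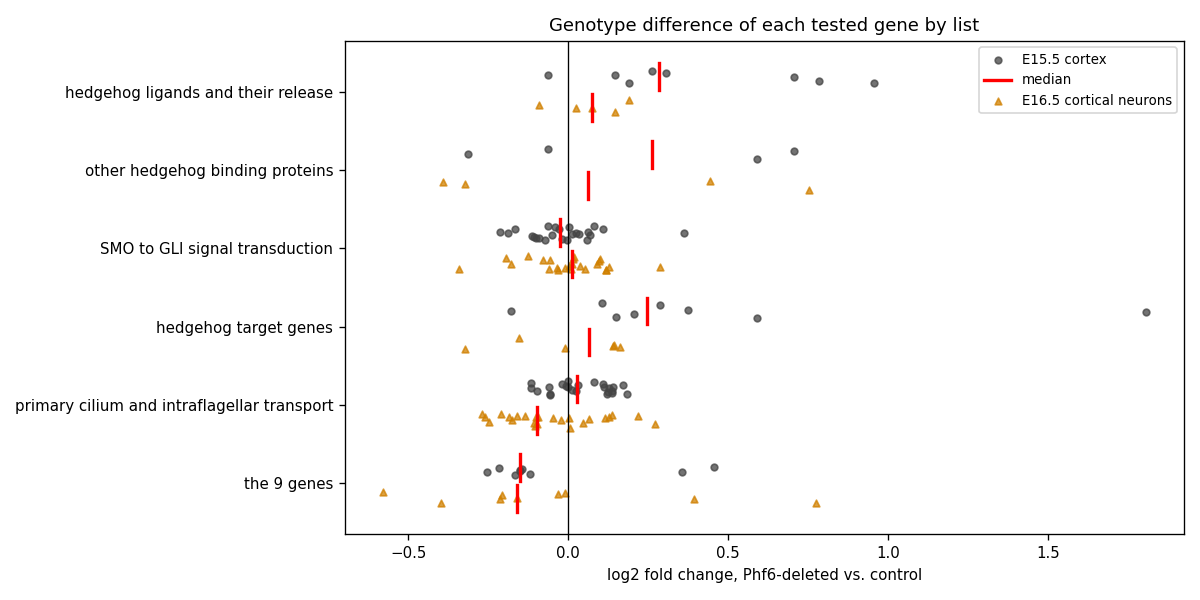
Log2-fold change (Phf6-deleted vs. control) of each tested gene in 5 lists of hedgehog pathway genes and in the 9 genes, for E15.5 cortex (circles) and E16.5 cortical neurons (triangles), with the median of each list as a red line. The medians of ligands (0.28) and targets (0.25) lie to the right of 0 in the cortex, and those of the 9 genes (-0.15 and -0.16) to the left in both tissues. The 9 genes include Boc, which was chosen on its lower level in the Phf6-deleted neurons.

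Finally, the promoters were searched for the GLI consensus GACCACCCA on both strands. Of the 9 genes, 7 had an entry among RefSeq promoters of GRCm38, each of 300 bases around the start, and none of the 7 held these letters. Boc and Gli1 had no entry, so their promoters were not searched. Of all 32851 promoters, 0.253% did.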

How the data were processed

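RNA was sequenced from 15 polyA libraries prepared with a stranded kit. The authors aligned the reads to mm10 with Rsubread and deposited featureCounts output on its inbuilt RefSeq annotation, raw counts per Entrez gene without normalization. Identifiers were matched to RefSeq symbols of GRCm38, the same build. The 1029 entries without an identifier (0.349 to 0.605% of the counts), 875 identifiers without a match and 835 pseudogenes, 35 ribosomal RNA and 1273 predicted genes were removed.

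Genes were filtered with filterByExpr, libraries scaled by TMM, and each comparison was fitted over all genes with edgeR 4.0.16 (robust quasi-likelihood F test, R 4.3.3), with litter, a label of each sample that pairs controls with deleted samples, as a fixed term where both genotypes share litters. Genes were called at a Benjamini-Hochberg FDR below 0.05. The SE of an edgeR fit is the size of its log2-fold change divided by the square root of its F statistic. CPM and RPKM used TMM library sizes over all libraries. The fits were tested on simulated data. Alternatives were DESeq2 1.42.0, limma-trend (limma 3.58.1), RLE scaling, library totals, no filter, no litter term and each library left out.

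The members and gene lists were chosen with earlier results of these data known. Named are all 9 members, Phf6, any called gene of a list or else the 2 with the smallest p of each pathway list, and the 5 genes most and 3 least like Boc. Each library is 1 foetus per the study. With litter as a term, genotype p-values measure the spread between foetuses left after litter, with variances drawn towards those of other genes. The comparison of control neurons with control cortex had no term for litter. Counts per library were 16858007 to 31157700. Coverage of single exons was not analysed here. A gene that the naming rule selects and a pair of sequence windows are not reported here.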

Additional observations from a re-analysis of the deposited data

Results flagged for a closer look

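In each of the 18 groups of at least 4 libraries (9 genes, 2 Phf6-deleted groups), the library farthest from its neighbours was compared with Dixon's 95% critical value, which chance exceeds in about 1 group of 20. A single library stood apart in 2 groups. For Gas1 in Phf6-/Y cortex, the library of replicate 3 was at 82.0 CPM and the other 4 at 68.4 to 70.9 CPM, a gap of 0.817 of the whole range. For Hhip in Phf6-/Y cortex, the library of replicate 1 was at 5.46 CPM and the other 4 at 3.26 to 3.76 CPM, a gap of 0.770 of the range. Replicate 1 is also the library with the highest Ptch1, Shh, Nkx2-1, Ccnd1 and Lrp2 among the cortices.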

How the results depend on the processing

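The 8 members lower in control neurons than in control cortex were called under every alternative run, and no member was called in the cortex or for the interaction under any. In neurons, 2 members were called without the filter (Boc and Gli3) and 0 without litter as a block, and 0 to 2 with each library left out. Boc lost its call without control replicate 2 (FDR = 0.0936) or its littermate Phf6-deleted replicate 3 (FDR = 0.0578), and without the litter block (log2-fold change -0.49, FDR = 0.369). Gli3 gained one without control replicate 3 (FDR = 0.0406). Over all genes, cortex calls were 156 higher and 43 lower with DESeq2, 95 and 19 without the filter, 0 and 1 without the block, and 6 to 68 and 1 to 13 with each library left out (6 to 15 higher without any control or without Phf6-/Y replicate 1 or 2). Neuron calls were 47 higher with DESeq2, 46 higher and 27 lower with library totals, 178 and 119 without the filter, 0 and 1 without the block, and 12 to 335 and 4 to 159 with each library left out, the highest without control replicate 3 and next 256 and 127 without its littermate, Phf6-deleted replicate 4. Interaction calls were 2 higher and 10 lower with DESeq2, 2 and 3 without the filter, 0 and 0 without the block, and 0 to 1 and 0 to 3 with each library left out.

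Some signs turned. Without the litter block the neuron log2-fold change was 0.035 for Gas1 and 0.024 for Ptch1, and the interaction was 0.076 for Smo and 0.15 for Gli2. With library totals the Cdon interaction was -0.0098. With each library left out, Gli2 in cortex ranged from -0.22 to 0.026, Gas1 in neurons from -0.14 to 0.073 and Ptch1 in neurons from -0.050 to 0.023. The interaction then ranged from -0.13 to 0.11 for Cdon, from -0.36 to 0.27 for Hhip, from -0.23 to 0.014 for Gli2, from -0.13 to 0.040 for Smo and from -0.092 to 0.18 for Phf6. The cause of these changes was not tested. Of 531 alternative fold changes of the 9 genes, 499 kept direction and call. Depth limits Gli1 in neurons, with 3 to 19 reads, and the few litters limit every genotype test.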
